A study of Mus musculus with 12 samples.

Results

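Short beta-chain CDR3s, those of 11 residues or fewer with both conserved ends counted, made up 32649 of 541047 productive T cell receptor beta (TRB) clonotypes (6.03%) and 80191 of 1233404 productive reads (6.50%) in 12 mouse thymocyte libraries. A clonotype here was 1 nucleotide CDR3 with 1 V and 1 J segment in 1 library, and productive means in frame, without a stop codon and with a covered CDR3. These clonotypes encoded 16178 distinct amino acid CDR3s. The length alone chose them, from the amino acid CDR3 of each deposited clonotype, and CDR3s of 16 or more residues (54226 clonotypes, 10.02%, and 121805 reads, 9.88%) served as the long comparison. The libraries came from wild-type (WT) mice and from Chrna9-/- mice (Chrna9KO in the labels), in which a nicotinic acetylcholine receptor subunit gene was inactivated, and the series title concerns negative selection of thymocytes. From each of 6 mice, in 2 male pairs and 1 female pair, thymocytes bearing either CD4 (CD4SP, single-positive) or CD8 (CD8SP) were sorted on these markers alone, with 1000000 CD4SP and 330000 CD8SP cells a sample, which gave 3 libraries in each of 4 groups. The sources used here do not give strain, age or the construction of the knockout allele, and receptor libraries cannot show Chrna9 transcript, which leaves the knockout itself unchecked.

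The beta chain CDR3 is the loop encoded where a V, a D and a J segment join. It starts at a conserved cysteine of the V segment and ends at a conserved phenylalanine of the J segment, and its middle usually lies over the peptide that an MHC molecule presents. Nucleases remove bases from the segment ends and terminal deoxynucleotidyl transferase adds bases without a template, so each loop has its own length. CD4SP thymocytes are selected on MHC class II and CD8SP thymocytes on MHC class I.

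The 10 short CDR3s with the most reads, libraries weighted equally, show the make-up of these loops, and 2 long CDR3s stand beside them for contrast. Each is given as its most-read nucleotide form, read 5′ to 3′ from the deposited clonotypes, with the bases assigned to no V, D or J segment in capitals.
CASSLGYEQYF: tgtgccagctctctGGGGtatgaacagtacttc
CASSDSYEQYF: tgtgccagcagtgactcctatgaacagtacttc
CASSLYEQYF: tgtgccagctctctctatgaacagtacttc
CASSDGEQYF: tgtgccagcagtgatgGtgaacagtacttc
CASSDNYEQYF: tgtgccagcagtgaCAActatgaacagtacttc
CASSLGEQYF: tgtgccagctctctcgGtgaacagtacttc
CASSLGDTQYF: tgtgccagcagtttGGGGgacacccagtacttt
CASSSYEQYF: tgtgccagcagctcctatgaacagtacttc
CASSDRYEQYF: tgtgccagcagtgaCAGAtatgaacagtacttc
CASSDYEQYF: tgtgccagcagtgactatgaacagtacttc
First long CDR3 (TRBV15, TRBJ2-2): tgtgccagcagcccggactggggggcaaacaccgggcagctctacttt
Second long CDR3 (TRBV5, TRBJ2-3): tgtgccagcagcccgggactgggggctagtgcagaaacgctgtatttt
None of these 10 short forms had an assigned D segment, and 4 of them held no base outside V and J. Both long forms had an assigned TRBD2 (13 and 12 D bases) between V and J. TRBJ2-7, a J segment whose product ends in EQYF, was the J of 9 of the 10 short CDR3s, and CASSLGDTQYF used TRBJ2-5.

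Most short CDR3s sat at the upper end of the range. CDR3s of 11 residues held 77.1% of the short reads, CDR3s of 10 residues 18.3%, and CDR3s of 9 residues or fewer 4.69% (3758 reads). The conserved first cysteine and a last phenylalanine or tryptophan were present in 99.2% of the short reads, and 675 reads lacked them. Below 10 residues the ends were intact in 89.2% of the reads. In the middle of the repertoire, at 12 to 15 residues, they were intact in 99.9%. Just inside and just outside the limit, 61794 reads had 11 residues and 152653 had 12.

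CD4SP libraries held a smaller share of short CDR3s than CD8SP libraries. In WT CD4SP replicates 1, 2 and 3, short CDR3s took 5.47%, 5.88% and 5.60% of the productive reads. In knockout CD4SP they took 5.47%, 5.42% and 5.89%. The WT CD8SP values were 7.35%, 6.89% and 7.50%, and those of knockout CD8SP 6.82%, 6.99% and 7.48%. Every CD8SP library lay above every CD4SP library. The means were 5.62% ± 0.212 and 7.17% ± 0.306 (SD, n = 6 libraries each). Within a mouse the CD4SP value was lower in 6 of 6 mice, by 1.55 ± 0.336 percentage points, and flipping the signs of the 6 differences in an exact permutation test (two-sided) gave p = 0.03125, its lower limit with 6 mice. Adjusted over the 20 comparisons of shares the p was 0.156, which does not pass 0.05. It could not have passed, because most of the 20 compare genotypes over 3 pairs and cannot go below 0.25. The adjusted p therefore decides nothing here. Counting each clonotype once gave 5.44% ± 0.177 and 6.67% ± 0.241, again lower in 6 of 6 mice.

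**Figure D1:**
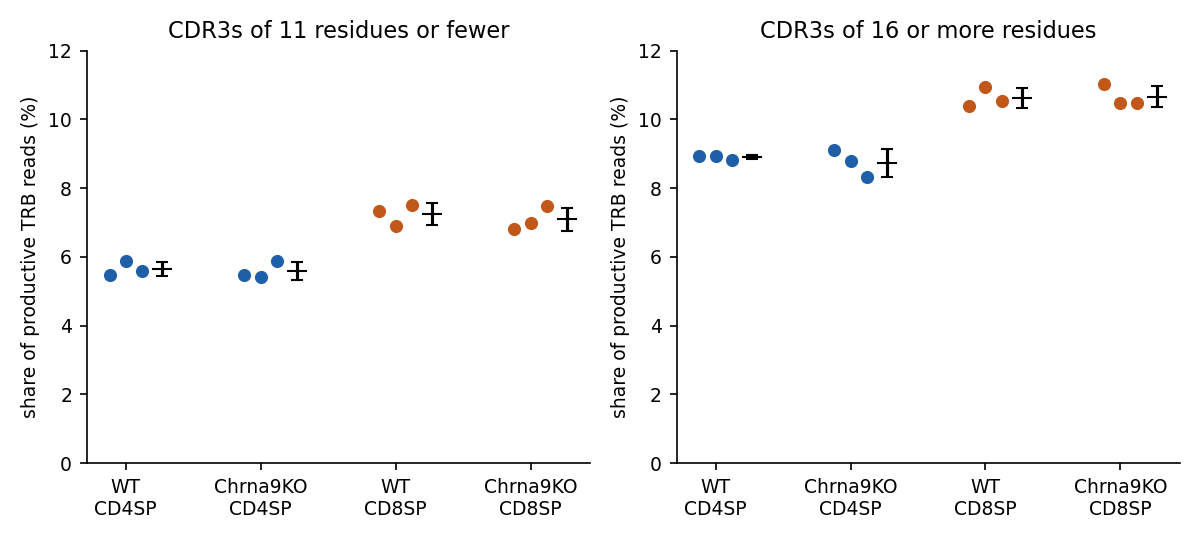
Share of productive TRB reads (y axis, percent, from 0) with CDR3s of 11 residues or fewer (left) and of 16 or more residues (right), 1 point per library in replicate order, with the mean and SD of 3 libraries as a black bar. In both panels all 6 CD8SP libraries lie above all 6 CD4SP libraries, and the 2 genotypes overlap.

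Long CDR3s showed the same direction, so CD8SP libraries held more reads at both ends of the length range. Long CDR3s took 8.82% ± 0.277 of the CD4SP and 10.6% ± 0.269 of the CD8SP reads (SD, n = 6), lower in CD4SP in 6 of 6 mice (exact permutation p = 0.03125, adjusted 0.156). The log2 ratio of short to long reads was -0.65 ± 0.088 in CD4SP and -0.57 ± 0.092 in CD8SP. This ratio was lower in CD4SP in 5 of 6 mice and its groups overlapped (exact permutation p = 0.156).

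Tested length by length, 2 of the 6 short lengths that passed the filter on low counts were lower in CD4SP, against 40% of all 15 lengths called lower and 46.7% called in either direction (7 lengths). CDR3s of 10 residues fell by 0.48 on the log2 scale (SE 0.049) and CDR3s of 11 residues fell by 0.34 (SE 0.022), with edgeR adjusted p = 9.12e-15 and 8.75e-24. Their shares per genotype were 0.979% ± 0.0973 in WT and 0.956% ± 0.0605 in knockout CD4SP against 1.37% ± 0.0624 and 1.34% ± 0.0438 in CD8SP for 10 residues (SD, n = 3 each). For 11 residues they were 4.38% ± 0.198 and 4.33% ± 0.180 against 5.56% ± 0.259 and 5.46% ± 0.275. CDR3s of 8 residues were at -0.36 (SE 0.18, adjusted p = 0.0867) and did not pass. Just outside the limit, CDR3s of 12 residues fell by 0.12 (SE 0.016), and CDR3s of 13 residues, at 0.28 (SE 0.013), were the only length called higher in CD4SP. The median log2 change was -0.20 over the 6 short lengths and -0.12 over all 15. Under other scalings the split over all lengths moved from 1 higher and 6 lower to 3 and 3 (DESeq2) or 3 and 5 (TMM), with both short lengths still lower.

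**Figure D2:**
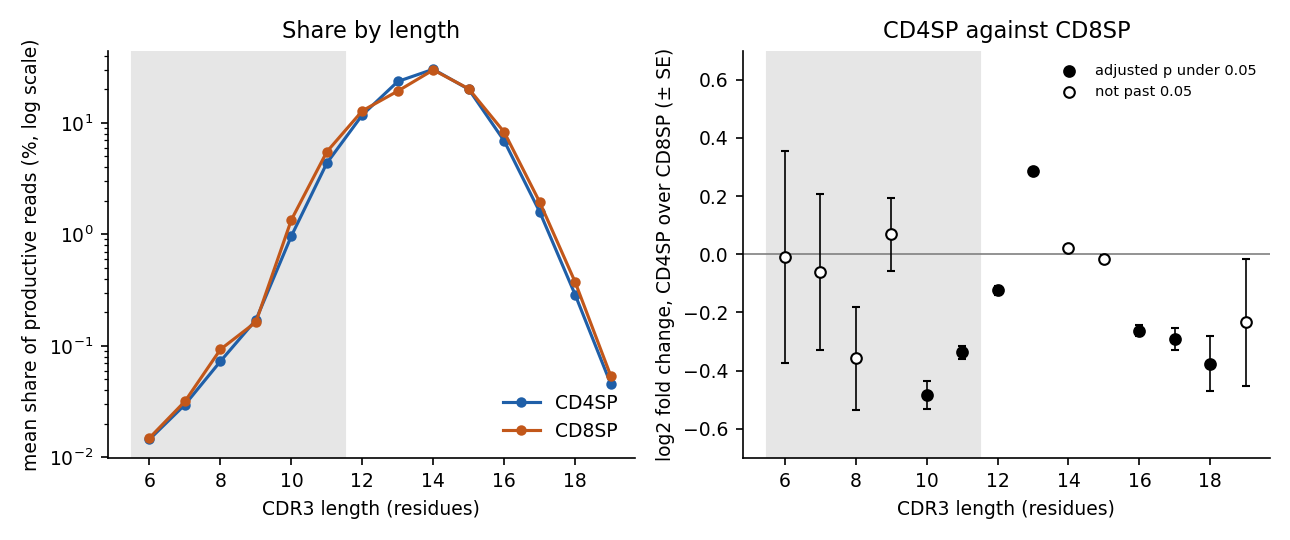
Left, mean share of productive reads (y axis, percent, log scale) against CDR3 length in residues, for CD4SP and CD8SP (mean of the 2 genotypes' means). Right, log2 fold change of CD4SP over CD8SP per length with its SE, filled where the edgeR adjusted p was under 0.05. Shading marks 11 residues or fewer, where the 10- and 11-residue points lie at -0.48 and -0.34.

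The short shares of the 2 genotypes overlapped in both cell types. In CD4SP it was 5.59% ± 0.256 in the knockout and 5.65% ± 0.210 in WT (SD, n = 3 each), with a difference of -0.056 ± 0.377 percentage points between libraries of the same replicate number and an exact sign-flip permutation p = 1. In CD8SP it was 7.10% ± 0.340 and 7.25% ± 0.317, with a difference of -0.152 ± 0.328 and an exact permutation p = 0.75. The study names pairs of mice, but the labels do not say that a number marks a pair. With this pairing p cannot go below 0.25, and without it the exact permutation p was 0.8 in CD4SP and 0.7 in CD8SP. The genotype effect in CD4SP minus that in CD8SP was 0.0958 ± 0.572 (exact permutation p = 1). The long share was 8.74% ± 0.407 against 8.91% ± 0.0701 in CD4SP and 10.7% ± 0.305 against 10.6% ± 0.296 in CD8SP. By edgeR 0 of 6 short lengths, and 0% of all 15, passed in either cell type, with 0 at an unadjusted p under 0.05 in each, and DESeq2 also called 0. Simulated 1.5-fold changes of 2 lengths, drawn from all 15 at a set dispersion of 0.002, were both recovered in each of these contrasts. At 6 residues the SE in the data was 0.52 in CD4SP and 0.46 in CD8SP. Changes of that size could therefore be missed at the shortest lengths.

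J segments divided short from long loops sharply. TRBJ2-7 (mm10, chromosome 6, 41543810 to 41543856) had the highest share of any J in short CDR3s. In CD4SP libraries it took from 40.3% to 43.0% of the short reads (median 41.3%), and in CD8SP libraries from 47.6% to 50.8% (median 49.9%). In long CDR3s it took 7.36% ± 0.425 and 7.03% ± 0.798 (SD, n = 6). The log2 ratio of its share in short to that in long CDR3s was 2.496 (SE 0.050) in CD4SP and 2.82 (SE 0.056) in CD8SP, with edgeR adjusted p = 3.07e-100 and 5.26e-45. TRBJ1-1 (chromosome 6, 41533864 to 41533911) took from 12.8% to 14.96% (median 14.4%) and from 15.04% to 16.8% (median 16.1%) of short reads, and 2.18% and 2.45% of long reads, at log2 ratios of 2.70 (SE 0.069) and 2.72 (SE 0.059). TRBJ1-2 was also higher in short CDR3s, at 1.53 and 1.00, with 3.08% and 2.29% of the short reads.

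The other J segments lay mostly on the long side. TRBJ2-2 was at a log2 ratio of -2.78 in both cell types (1.93% and 1.78% of short against 13.2% and 12.2% of long reads). TRBJ2-3 was at -1.79 in CD4SP and -2.77 in CD8SP, and TRBJ1-6 at -2.14 and -3.06. TRBJ1-3 (-1.48 and -1.42), TRBJ2-1 (-1.01 and -1.10), TRBJ2-4 (-0.99 in both) and TRBJ1-4 (-0.91 and -1.37) were lower too. TRBJ1-5 did not pass in either cell type (-0.03 and -0.29). TRBJ2-5 was lower in short CDR3s of CD8SP (-0.71, SE 0.052). In CD4SP it was at 0.14 (SE 0.056, adjusted p = 0.0156), and its sign turned with DESeq2 (-0.02) and TMM (-0.03). In all, 30 of 33 V and J segments differed between short and long CDR3s in CD4SP (90.9% of the table, 18 or 54.5% higher and 12 lower) and 27 in CD8SP (81.8%, 11 higher and 16 lower). Every segment of that table was tested in short CDR3s, so these counts set nothing apart. The splits became 15 higher and 12 lower (DESeq2) or 15 and 13 (TMM) in CD4SP and 14 and 14 under both in CD8SP, where the median of all segments moved by -0.16 and -0.17 in CD4SP and by 0.33 in CD8SP.

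J segments differ in the number of germline bases they can give to the CDR3, which adds to the length that chose the members. TRBJ2-7 gives 19 bases, the fewest, TRBJ1-1 and TRBJ1-2 give 20, and TRBJ2-3, TRBJ2-4 and TRBJ2-5 give 21. TRBJ2-1, TRBJ1-3 and TRBJ1-5 give 22, TRBJ2-2 and TRBJ1-4 give 23, and TRBJ1-6 gives 25, the most. The 3 J segments with 20 bases or fewer were the only ones higher in short CDR3s in both cell types. Above 20 bases the log2 ratios did not follow the number of bases: TRBJ2-3 (21 bases) lay below TRBJ1-4 (23 bases) in both cell types, and in CD4SP TRBJ2-2 (23 bases) lay below TRBJ1-6 (25 bases).

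**Figure D3:**
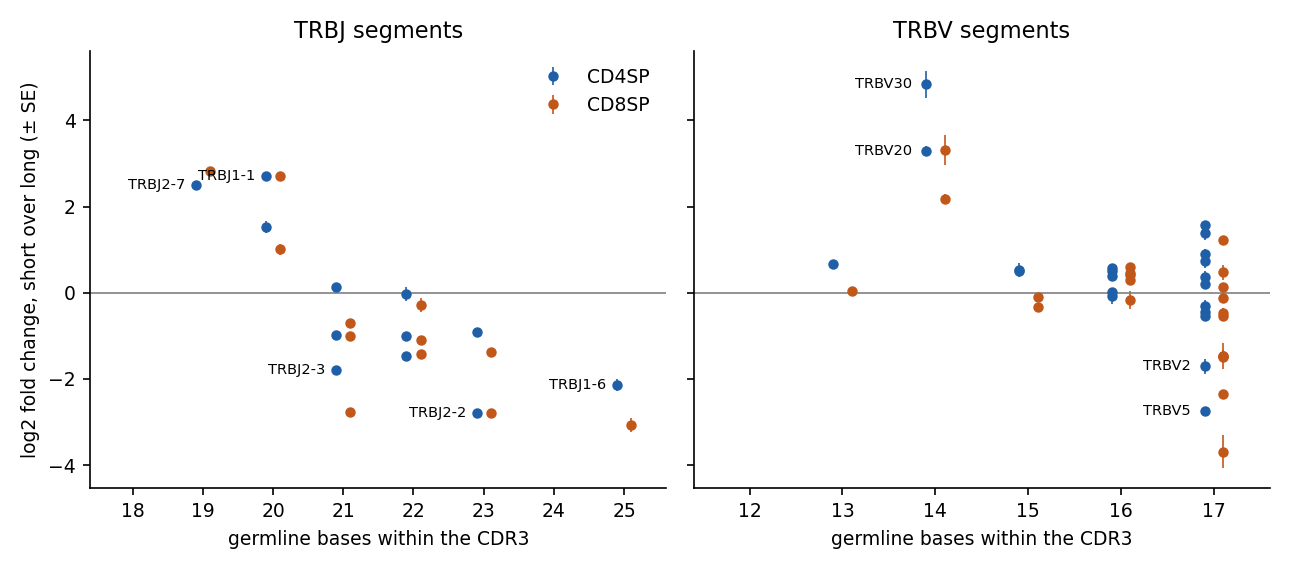
Log2 fold change of a segment's share in short over long CDR3s (y axis, ± SE) against the germline bases it can give to the CDR3 (x axis), for J segments (left) and V segments (right), in CD4SP and CD8SP libraries, with names left of the CD4SP point. J segments with 19 and 20 bases lie above 0 and TRBJ1-6, with 25, at -2.14 and -3.06.

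Among V segments, TRBV30 and TRBV20, which give 14 germline bases where most give 16 or 17, had the largest ratios. TRBV30 (chromosome 6, 41281376 to 41281990) took from 0.469% to 1.36% of CD4SP short reads (median 0.816%) and from 0.594% to 0.911% of CD8SP short reads (median 0.775%). It took 0.0268% ± 0.0179 and 0.0786% ± 0.0564 of long reads, at log2 ratios of 4.84 (SE 0.32) and 3.31 (SE 0.34). TRBV20 (chromosome 6, 41188273 to 41188977) took from 6.77% to 7.96% (median 7.28%) and from 3.86% to 5.47% (median 4.85%) of short reads, against 0.745% and 1.05% of long reads, at 3.29 (SE 0.11) and 2.18 (SE 0.10). TRBV31, which lies 3′ of the J segments in the opposite orientation and gives 13 bases, the fewest, was higher in short CDR3s of CD4SP by only 0.68 (SE 0.048). In CD8SP it was at 0.04 (SE 0.058) and did not pass, though it did with DESeq2 and TMM (0.39 and 0.38). These 3 V segments together held 33.0% ± 1.16 of the short and 16.4% ± 0.545 of the long reads in CD4SP, and 12.1% ± 0.806 and 7.49% ± 0.133 in CD8SP (SD, n = 6), a set chosen after its values were seen and not tested.

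On the long side, TRBV5 (chromosome 6, 41062359 to 41062803) had the largest share. It held 34.9% ± 1.59 of the long reads in CD4SP and 21.3% ± 1.53 in CD8SP, and 5.25% ± 0.360 and 4.15% ± 0.338 of the short reads (SD, n = 6), at log2 ratios of -2.74 (SE 0.055) and -2.36 (SE 0.053). TRBV2 was lower in short CDR3s at -1.70 (SE 0.17) in CD4SP and -3.69 (SE 0.38) in CD8SP. TRBV1 was at -0.30 (SE 0.13) and -1.49 (SE 0.15). TRBV15 was higher in short CDR3s of CD4SP by 1.56 (SE 0.11) and at 0.14 in CD8SP, which did not pass but did with DESeq2 and TMM (0.47 in each). TRBV29, at 17 germline bases, was higher in those of CD8SP by 1.21 (SE 0.048) and was at 0.21 (SE 0.071) in CD4SP, a call that ended with DESeq2 (0.05) and TMM (0.04).

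Of the TRBV13 family, the Vbeta8 segments, 2 of 3 members were higher in short CDR3s of CD4SP and 3 of 3 in CD8SP, where 54.5% and 33.3% of all 33 segments were higher, with medians of 0.39 and 0.42 against 0.21 and -0.29. The family held 28.5% ± 0.955 and 36.4% ± 1.19 of the short reads. A list of 7 segments known to react with superantigens of endogenous retroviruses (TRBV29, TRBV26, TRBV17, TRBV16, TRBV15 and both TRBV12 segments), which need not be complete, held 23.0% ± 1.59 of the short reads in CD4SP and 35.6% ± 0.946 in CD8SP, and 15.8% ± 0.670 and 30.8% ± 1.02 of the long reads. In CD4SP 6 of these 7 were higher and 1 lower in short CDR3s, and in CD8SP 1 was higher and 3 were lower, with medians of 0.53 and -0.12. Of all 33 segments 54.5% were higher and 36.4% lower in CD4SP, and 33.3% and 48.5% in CD8SP. In CD8SP the calls of TRBV12-1 and TRBV26 ended with DESeq2 and TMM, and TRBV12-2 and TRBV15 were then called higher.

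The parts of the junction were counted from the deposited reference points, weighted by reads. They add up to the length that chose the members, so their direction is partly fixed and they are given as a description. In short CDR3s 5.23 ± 0.0855 J bases were removed in CD4SP and 5.35 ± 0.0454 in CD8SP, against 1.45 and 1.36 in long ones (SD, n = 6 libraries). V segments lost 2.86 ± 0.0510 and 3.36 ± 0.0804 bases in short CDR3s, against 1.52 and 1.70. A D segment was assigned in 29.2% ± 1.01 and 32.9% ± 1.29 of the short reads, against 94.2% and 94.3% of the long reads, and gave a mean of 1.899 and 2.11 bases against 9.26 and 9.19. Of all short reads, 23.7% had TRBD1 and 7.86% TRBD2, where long reads had 36.1% and 58.2%. Bases assigned to no segment differed least, at 2.62 ± 0.0659 and 2.65 ± 0.0335 in short against 3.77 and 3.74 in long CDR3s. A trimmed D base cannot be told from an added one, so the lower share with a D does not count D use. Short reads with no such base made up 21.95% ± 1.70 and 20.4% ± 0.676, against 8.72% and 8.64% of the long reads.

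Residues 6 and 7, at the middle of the loop in these CDR3s, were more hydrophilic in short than in long CDR3s. Their mean Kyte-Doolittle hydropathy was -1.63 ± 0.0228 in short and -1.01 ± 0.0405 in long CDR3s of CD4SP, and -1.40 ± 0.0456 and -1.06 ± 0.0371 in CD8SP (SD, n = 6). It was lower in 6 of 6 mice in each cell type (exact sign-flip permutation p = 0.03125 for each, the lower limit with 6 mice). All 28 comparisons of short with long CDR3s lay at this limit, most of them tied to length. Adjustment over them left p unchanged and adds nothing. At a fixed position a short loop is read nearer to its J segment than a long one. Between cell types the short CDR3s differed by -0.230 ± 0.0445 (CD4SP minus CD8SP), lower in CD4SP in 6 of 6 mice. The sequence CASS opened 55.0% of the short and 79.7% of the long reads, and EQYF closed 41.3% and 7.10%.

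Short CDR3s recurred between mice far more often than long ones. Of the distinct short amino acid CDR3s of a CD4SP library, 50.2% ± 0.818 were found in a library of at least 1 other mouse, against 17.4% ± 0.723 of the long ones (SD, n = 6). In CD8SP the shares were 53.4% ± 1.57 and 17.3% ± 0.515. Short exceeded long in 6 of 6 mice in each cell type, by 32.8 and 36.1 percentage points (exact permutation p = 0.03125, the lower limit with 6 mice). Adjustment over the 28 comparisons, all of which lay at this limit, left p unchanged and adds nothing. With 4146 reads drawn per class and library, the reads of the smallest short set, the shares were 48.7% and 52.8% for short against 14.2% and 14.3% for long. At the nucleotide level 26.6% ± 0.590 and 27.7% ± 1.14 of the short CDR3s were shared, and 4.202% ± 0.278 and 3.74% ± 0.292 of the long ones. The difference between genotypes in the short share found in another mouse was -0.364 ± 1.06 percentage points in CD4SP and -0.974 ± 2.22 in CD8SP (knockout minus WT, paired by replicate number, exact permutation p = 0.5 and 1).

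Of the 16178 short CDR3s, 12203 (75.4%) were seen in 1 library, 627 (3.88%) in at least 6, and 53 in all 12, and those 53 held 9.34% of the short reads. No long CDR3 was in 12 libraries. Of the 46585 long CDR3s 5 reached 11 libraries. In all 6 mice there were 332 short CDR3s, with 25.96% of the short reads, and 58 long ones, with 1.65% of the long reads. A short CDR3 had 1.605 nucleotide forms on average and a long one 1.13, and 15.9% against 4.48% were met with at least 2 V segments. Over the whole series 21.0% of the distinct CDR3s of 10 residues, 24.9% of those of 11 and 25.7% of those of 12 were found in a second mouse. These lengths held 14639, 61794 and 152653 reads. Reads were not equalized between them, so these values do not rank sharing by length.

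**Figure D4:**
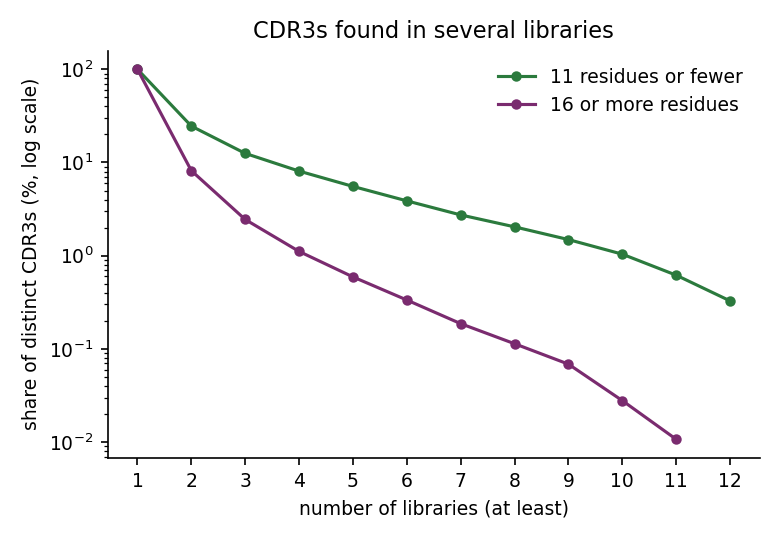
Share of distinct amino acid CDR3s (y axis, percent, log scale) found in at least the number of libraries on the x axis, for CDR3s of 11 residues or fewer and of 16 or more. At 6 libraries the curves stand at 3.88% and 0.335%, and only the short curve reaches 12.

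Pairs of libraries showed whose CDR3s were shared. The index used was the number of shared nucleotide CDR3s, whatever their segments, per 1000000 possible pairs of nucleotide CDR3s. For short CDR3s its median was 28.2 between the 2 cell types of 1 mouse (6 pairs of libraries), 28.6 between libraries of the same cell type from different mice (30 pairs) and 22.4 between different cell types of different mice (30 pairs). For long CDR3s the medians were 3.13, 1.48 and 1.07. The libraries of a mouse enter several pairs, so these values are a description. For short CDR3s the values of pairs from 1 mouse lay within those of the same cell type from different mice (25.6 to 32.7), and for long CDR3s they lay above them (2.69 to 3.50 against 0.910 to 2.05).

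The most-read short CDR3, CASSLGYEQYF, had 345 reads in 12 libraries, 48 nucleotide forms and 14 V segments, always with TRBJ2-7. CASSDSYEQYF followed with 333 reads, 22 forms and 10 V segments. At 10 residues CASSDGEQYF (240 reads) came in 8 forms, and TRBV13-1 held 72.9% of its reads. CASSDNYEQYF (235 reads) came in 13 forms, and the form printed above held 63.4% of its reads and was in all 12 libraries. The first of the long CDR3s printed above, which had the most reads, held 81 reads in 11 libraries. Mean reads per clonotype were 1.97 ± 0.0928 for short and 1.82 ± 0.0879 for long CDR3s in CD4SP, and 2.87 ± 0.140 and 2.61 ± 0.126 in CD8SP (SD, n = 6), higher for short in 6 of 6 mice in each (exact permutation p = 0.03125).

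The V segments of short CDR3s differed widely between CD4SP and CD8SP. With reads set against all productive reads of the library, 25 of 33 segments of short CDR3s were called by edgeR, 12 higher and 13 lower in CD4SP, against 84% of all 100 combinations of segment and length class (35% higher and 49% lower). The share near that background is no result about short CDR3s. Their median log2 change was -0.01, and -0.13 over all 100. TRBV31 (chromosome 6, 41557693 to 41558371) was the most abundant V of the short CD4SP reads. It took from 23.4% to 26.7% of them (median 24.5%) and from 6.17% to 7.03% of the short CD8SP reads (median 6.50%), and rose by 1.57 on the log2 scale (SE 0.058). TRBV29 (chromosome 6, 41271403 to 41271881) took from 5.60% to 7.86% (median 6.43%) and from 14.6% to 17.1% (median 16.1%), and fell by 1.63 (SE 0.054) in CD4SP. TRBV14 took from 1.54% to 2.72% (median 2.20%) and from 6.63% to 8.78% (median 7.81%), and fell by 2.16 (SE 0.11). For all 3 segments the 6 CD4SP and 6 CD8SP libraries did not overlap. How many of the 33 segments did the same was not counted, so this does not set the 3 apart.

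TRBV2 (3.01, SE 0.36), TRBV3 (1.24, SE 0.15), TRBV23 (1.09, SE 0.28), TRBV26 (0.79, SE 0.098) and TRBJ1-6 (0.78, SE 0.24) were also higher in short CDR3s of CD4SP. TRBV17 (-1.85, SE 0.10), TRBV12-2 (-1.304, SE 0.12), TRBV12-1 (-1.16, SE 0.081) and TRBV13-3 (-1.13, SE 0.058) were lower. The call of TRBJ1-6 ended with each clonotype counted once (0.51, adjusted p = 0.0712) and that of TRBV23 without clonotypes of 1 read (1.01, adjusted p = 0.0605). Of the superantigen list 2 were higher and 5 lower, where 12 and 13 of the 33 short segments were. Its median was -1.16, against -0.01 over those 33 and -0.13 over all 100. Among J segments TRBJ2-7 (-0.60, SE 0.032) and TRBJ1-1 (-0.53, SE 0.053) were lower, and TRBJ2-3 (0.72, SE 0.085) and TRBJ2-5 (0.41, SE 0.070) were higher. TRBV13-2, TRBV29 and TRBV1 pair with the invariant alpha chain of natural killer T (NKT) cells. In short CDR3s TRBV13-2 was at 0.21 (SE 0.087, edgeR adjusted p = 0.0366), while TRBV29 was at -1.63 (SE 0.054), and TRBV1 is not given here. That alpha chain made up 5.26% to 8.49% of the productive alpha reads in CD4SP and 0.0495% to 0.0897% in CD8SP libraries. Its part in the values of these V segments was not tested. Fewer cells with a segment and less RNA per cell cannot be told apart in these bulk libraries.

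Whether the preference of short CDR3s for a segment itself differed between the cell types was tested as an interaction, a test added after the data were seen. Of 33 segments 22 were called (66.7%), 18 (54.5%) with a higher and 4 with a lower ratio of short to long in CD4SP. This split depended on scaling. It was 9 higher and 13 lower with DESeq2 and 6 and 16 with TMM, and 13 of the 33 segments changed sign between the 3. The 10 segments called in the same direction under all 3 were TRBV2 (1.98), TRBV3 (1.84), TRBV15 (1.43), TRBV26 (1.36), TRBV1 (1.19) and TRBV20 (1.11) on the higher side, and TRBV29 (-1.01), TRBV13-3 (-0.58), TRBV5 (-0.38) and TRBJ2-7 (-0.33) on the lower side, as log2 differences without added scaling. Between CD4SP and CD8SP, TRBV29 was at -1.63 in short and -0.54 in long CDR3s, and TRBV15 at 0.37 and -0.98.

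**Figure D5:**
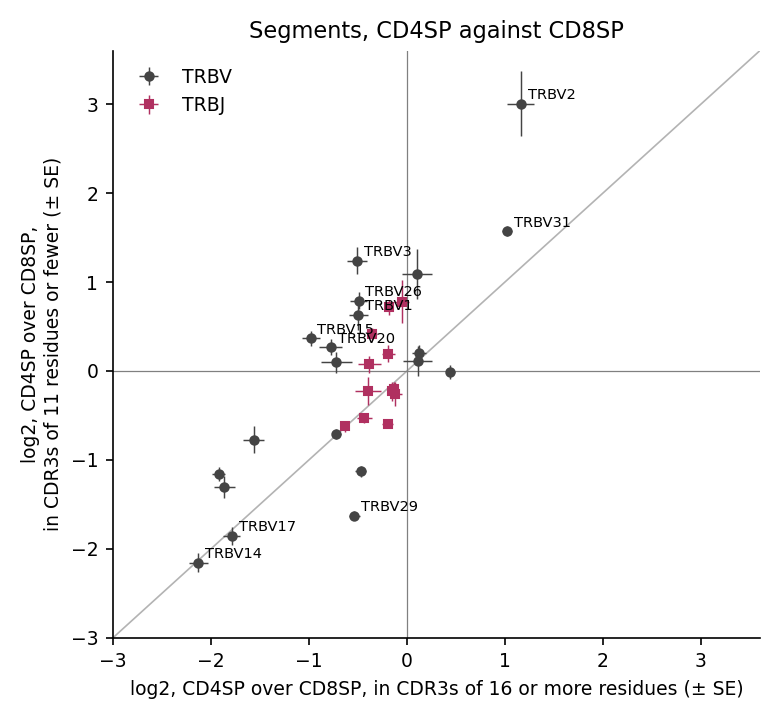
Log2 fold change of CD4SP over CD8SP for each V (circles) and J (squares) segment in CDR3s of 11 residues or fewer (y axis) against the same in CDR3s of 16 or more residues (x axis), each with its SE, relative to all productive reads. The diagonal marks equal changes. TRBV2 and TRBV3 lie above it and TRBV29 lies below it.

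Single short CDR3s also differed between the cell types. Of 618 amino acid CDR3s with enough reads to test, 87 were short and 1 was long, and 33 of the 87 were called, 4 higher and 29 lower in CD4SP, against 31.7% of all 618 (196 called, 82 higher and 114 lower). The filter on low counts set much of this split, and nothing is read from it. On the 6 CD8SP libraries alone 71 of the 87 passed that filter, among them all 29 called lower, and on the 6 CD4SP libraries alone 17 passed, among them 3 of the 4 called higher and 2 of the 29 called lower. With TMM 5 were higher and 11 lower and with DESeq2 8 and 12, and the median of all 618, at -0.56, moved by 0.54 and 0.61. Without the filter on low counts 321989 CDR3s were tested, 16178 of them short, and 3 short ones were called. With each clonotype counted once 24 were tested, 2 of them short. Those 2 were called lower, beside 2 higher and 17 lower of all 24. The 9 named here, the 4 higher and 5 of the 6 with the largest fall, were called under all 3 scalings. They are printed in their most-read nucleotide form, with unassigned bases in capitals, the 4 higher in CD4SP first.
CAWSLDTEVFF: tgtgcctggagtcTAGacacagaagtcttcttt
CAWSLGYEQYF: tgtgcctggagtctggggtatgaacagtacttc
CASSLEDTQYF: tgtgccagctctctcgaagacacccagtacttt
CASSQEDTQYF: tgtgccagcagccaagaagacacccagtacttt
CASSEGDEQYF: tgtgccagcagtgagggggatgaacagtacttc
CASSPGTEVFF: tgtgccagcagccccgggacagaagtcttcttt
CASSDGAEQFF: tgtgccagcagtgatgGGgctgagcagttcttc
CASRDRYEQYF: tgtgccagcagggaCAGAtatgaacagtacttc
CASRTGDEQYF: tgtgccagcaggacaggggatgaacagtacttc
The CDR3s named here entered the test through the cell type in which they were high, so their values are given as a description. Both CAWS sequences came from TRBV31 alone. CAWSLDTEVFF had 10, 3 and 5 reads in the WT and 11, 17 and 2 in the knockout CD4SP libraries, and 0 in all 6 CD8SP libraries. Against a floor of 3 reads over the CD8SP group it was at least 21.3-fold higher in CD4SP. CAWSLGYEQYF had 13, 25 and 18 reads in WT and 36, 10 and 11 in knockout CD4SP, and 0, 3 and 6 in WT and 4, 4 and 0 in knockout CD8SP. Its reads per 1000000 productive reads were 8.83-fold higher in CD4SP (95% counting interval 5.28 to 15.7), and its lowest CD4SP library lay above its highest CD8SP library.

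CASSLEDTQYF (5.70-fold higher, interval 3.51 to 9.65) and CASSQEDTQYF (2.77-fold, 1.85 to 4.21) used TRBJ2-5 and held no unassigned base in the form shown. The call of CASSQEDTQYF, with an adjusted p of 0.0393, ended without clonotypes of 1 read (0.0813) and when any mouse other than WT replicate 1 was left out (0.0565 to 0.161). On the CD8SP side, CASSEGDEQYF had 4, 26 and 17 reads in WT and 5, 13 and 20 in knockout CD8SP and 0 in all 6 CD4SP libraries, so it was at least 21.3-fold higher in CD8SP. The other 4 were from 8.71-fold (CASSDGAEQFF, interval 4.04 to 22.3) to 12.6-fold (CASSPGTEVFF, 4.70 to 47.6) higher in CD8SP. Their highest CD4SP library held 2 to 5 reads each, and the CD8SP medians ran from 10.5 to 14 reads. The call of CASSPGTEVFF ended without knockout replicate 3 (adjusted p = 0.0503) and that of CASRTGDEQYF without WT replicate 1 (0.0562). Intervals and floors cover counting error only, since the reads carry no molecule counts in the files.

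Of the 10 most-read short CDR3s, 3 were called lower in CD4SP, where 18.4% of all 618 were, and none of these calls held with DESeq2 (adjusted p from 0.0932 to 0.333) or TMM (from 0.0904 to 0.313). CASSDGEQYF had from 2 to 14 reads (median 8.5) in CD4SP and from 25 to 42 (median 28) in CD8SP, at a log2 change of -1.54 (adjusted p = 0.00274). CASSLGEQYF was at -1.25 (adjusted p = 0.0153) and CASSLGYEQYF at -1.07 (adjusted p = 0.0145). The other 7 did not pass, with values from -0.63 to 0.16, and 3 of these 7 changed sign between the scalings.

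Between genotypes no segment or sequence of short CDR3s passed. Of the 33 segments 0 were called in CD4SP and 0 in CD8SP, as were 0% of all 100, with 1 and 3 at an unadjusted p under 0.05 by edgeR, and DESeq2 called 0 as well (1 and 2 unadjusted). The smallest p-values were those of TRBV29 (-0.26, SE 0.10), TRBV26 (-0.21) and TRBV16 (-0.33) in CD4SP (adjusted p = 0.998 for each) and of TRBV13-2 (0.28, SE 0.13), TRBJ1-6 (0.86, SE 0.40) and TRBV13-3 (-0.19, SE 0.088) in CD8SP (0.757 for each). The superantigen list held 22.1% ± 1.06 of the short reads in knockout and 23.9% ± 1.69 in WT CD4SP, and 35.1% ± 0.685 and 36.1% ± 0.995 in CD8SP (SD, n = 3 each). Simulated 1.5-fold changes were recovered for 5 of 5 in each cell type, drawn from all 100 combinations at a set dispersion of 0.002. The draw did not single out short CDR3s. TRBJ1-6 at 0.86 did not pass, so changes of that size could be missed in segments with a large SE.

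Of the 87 short CDR3s 0 passed in CD4SP (3 at an unadjusted p under 0.05, DESeq2 0 called and 5 unadjusted) and 0 in CD8SP (0 unadjusted, DESeq2 0 called and 1 unadjusted). Over all 618 the shares called were 0% and 0.162%. The smallest p-values belonged to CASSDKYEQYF (-4.91, SE 1.58), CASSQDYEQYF (-2.17, SE 0.94) and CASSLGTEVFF (-3.35, SE 1.53) in CD4SP, and to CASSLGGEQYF (-1.47, SE 0.75), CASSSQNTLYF (-0.99, SE 0.65) and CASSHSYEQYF (-1.16, SE 0.80) in CD8SP, with an adjusted p of 1 for each. Simulated 2-fold changes of single CDR3s, drawn from all 618 at a set dispersion of 0.002, were recovered for only 9.7% in CD4SP (3 of 31) and 32.3% in CD8SP (10 of 31). Changes of that size could therefore be missed here, and more so where the data spread more widely than that dispersion.

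The shortest CDR3s found in at least 6 libraries had 8 and 9 residues. There were 2 of 8 residues and 8 of 9, and 9 of the 10 used TRBJ2-7. These 3 forms, 2 of 8 residues and the 9-residue form with the highest share of its CDR3's reads, had no unassigned base.
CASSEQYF: tgtgccagcagtgaacagtacttc
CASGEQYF: tgtgccagcggtgaacagtacttc
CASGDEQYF: tgtgccagcggtgatgaacagtacttc
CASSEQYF had 14 reads in 7 libraries and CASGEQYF had 25 reads in 6. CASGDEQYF had 74 reads in 11 libraries, of which 98.6% were the 1 form shown, from TRBV13-2. It had 5, 2 and 6 reads in WT and 15, 10 and 15 in knockout CD4SP, against 3, 5 and 0 in WT and 4, 1 and 8 in knockout CD8SP. Its ratio of CD4SP to CD8SP was 3.35 (95% counting interval 1.99 to 5.85), and it did not pass in edgeR (log2 1.78, adjusted p = 0.106). In CD4SP the 3 knockout counts lay above the 3 WT counts, and the genotype difference did not pass (log2 1.43, SE 1.11, adjusted p = 1). How many other CDR3s split in this way was not counted. The NKT alpha chain values given above differ between the cell types in the direction of the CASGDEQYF ratio, and TRBV29, another NKT partner, differs in the other direction. The part of NKT cells in this was not tested. The other 7, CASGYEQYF, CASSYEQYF, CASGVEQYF, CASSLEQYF, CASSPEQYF, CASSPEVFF and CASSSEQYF, had 14 to 82 reads.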

How the data were processed

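The 12 TRB clonotype tables were used, and the matching alpha tables only for NKT markers. Per the file headers, each clonotype has a read count and a fraction of its library, and tests ran on the deposited counts alone. The labels' protocols name the SMARTer Mouse TCR kit and a MiSeq, and the series' design text MiXCR and VDJtools. The submitters' processing notes give mm10 as the build. Versions and settings of MiXCR are not given in the sources used here, and the files hold no molecule counts, so reads of 1 molecule were not collapsed. Productive TRB reads numbered 74021 to 134169 per library. Reads without a covered CDR3 were 0.513% to 0.837% and nonproductive reads 1.36% to 2.33%. Segments are best hits, and positions came from the RefSeq table of the same build (36 of 36 segments matched). Replicates were taken as separate mice. An index of sharing, not a number of clonotypes, was higher for each CD4SP library with the CD8SP library of its own mouse than its highest other value. This held in 6 of 6 cases (0.875 to 1.02 against 0.477 to 0.508). For short CDR3s alone the pairs of 1 mouse did not stand apart, as given above.

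Reads were summed per CDR3 length, per V or J segment within short, middle and long CDR3s, and per amino acid CDR3. They were tested with edgeR 4.0.16 in R 4.3.3 (quasi-likelihood test, library size set to all productive reads, or to the reads of the class for short against long, filterByExpr, Benjamini-Hochberg at 0.05). The mouse was the block between cell types and between short and long, and the replicate number between genotypes, since the study names pairs of mice and a paired test (the labels do not tie numbers to pairs). SEs were taken from the log2 change and the F statistic. Shares and junction measures used exact sign-flip permutation tests. Alternatives were DESeq2 1.42.0, TMM, no filter, limits of 10 and 12 residues, each clonotype counted once, no clonotypes of 1 read, and each mouse left out. Tests were checked on simulated counts. Python 3.11.15 with pandas 2.3.3 was used for the rest.

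Segments were named where called, the 6 largest changes per direction with at least 0.5% of the reads of either class, with all functional J segments and 2 lists. CDR3s were the 10 with most reads, those called (up to 6 per direction) and those of the 2 shortest lengths present in 6 libraries, and 1 of those called is not reported here. The members and lists were chosen with earlier results of these data known.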

Additional observations from a re-analysis of the deposited data

Results flagged for a closer look

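Among 32 comparisons of 6 libraries of 1 cell type, 6 single values lay far from the other 5, where chance gives about 1 in 20. Knockout CD4SP replicate 1 gave 4 of them in short CDR3s: 27.3% of reads with an assigned D (the others 29.1% to 29.9%), 1.76 D bases (1.89 to 1.96), 15.3 J bases (15.02 to 15.1) and 5.07 J bases removed (5.22 to 5.30). These 4 measures share reads. The long CDR3 share of clonotypes was 8.73% in knockout CD4SP replicate 3 (others 9.17% to 9.40%). Short reads without unassigned bases made up 19.1% in knockout CD8SP replicate 2 (20.3% to 21.0%).

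The gap between short and long CDR3s differed between CD4SP and CD8SP in several measures, each in an exact sign-flip permutation test over 6 mice at p = 0.03125, the smallest possible. Where it passed, taken as CD4SP minus CD8SP, the gap differed by -0.321 V bases removed, -0.205 J bases removed, -0.279 D bases, 0.398 J bases in the CDR3, -3.54 percentage points with an assigned D, -0.285 in hydropathy and -0.110 reads per clonotype. Reads per clonotype were lower in CD4SP in both classes (1.97 against 2.87 in short, 1.82 against 2.61 in long CDR3s). At an equal ratio of short to long, a difference grows with that level, and the ratio was not tested.

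Segments whose log2 ratio of short to long differed between the cell types (edgeR adjusted p under 0.05, without added scaling) were, on the lower side in CD4SP, TRBV29 (-1.01), TRBV13-3 (-0.58), TRBV5 (-0.38) and TRBJ2-7 (-0.33). On the higher side were TRBV2 (1.98), TRBV3 (1.84), TRBV30 (1.55), TRBV15 (1.43), TRBV26 (1.36), TRBV1 (1.19), TRBV20 (1.11), TRBV23 (1.02), TRBJ2-3 (0.98), TRBJ1-6 (0.92), TRBV4 (0.91), TRBV16 (0.87), TRBJ2-5 (0.85), TRBV12-1 (0.83), TRBV31 (0.63), TRBV12-2 (0.62), TRBJ1-2 (0.52) and TRBJ1-4 (0.47). TRBV31, TRBV12-2, TRBJ1-2 and TRBJ1-4 changed sign under TMM, and TRBJ1-4 also with DESeq2.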

How the results depend on the processing

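Of the values of the main comparisons, 267 of 431 kept their direction and their side of the threshold under the alternatives run. The same held for 687 of 705 values of single segments or CDR3s. The 267 include genotype tests of shares over 3 pairs, where the exact sign-flip permutation p cannot go below 0.25. Those tests could not cross the threshold, so they kept their side by construction. How many of the 267 they make up was not counted, so the 267 do not measure how stable the results are.

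With 12 residues as the limit, the short share of the knockout minus WT in CD4SP turned to 0.192 percentage points, and the log2 ratio of short to long for CD4SP minus CD8SP turned to 0.0703. With each clonotype counted once, the difference in genotype effect on the short share turned to -0.00884, and the long share of the knockout minus WT in CD8SP to -0.0262. None of these passed a test in either setting. Of 87 short CDR3s, the 33 called between cell types became 20 with DESeq2 and 16 with TMM. Of all 618, 130 were higher and 52 lower with DESeq2, and 109 and 33 with TMM. Without clonotypes of 1 read 13 of 72 short ones were called (65 higher and 46 lower of all 480). Without a filter 3 of 16178 were called (38 higher and 1 lower of all 321989). With each clonotype counted once 2 of 2 were called (2 higher and 17 lower of all 24). The tested sets differ, so these counts form no series. Over all 100 combinations of segment and class, DESeq2 moved the split from 35 higher and 49 lower to 38 and 36. The call of TRBJ1-2 in short against long CDR3s of CD8SP ended with a limit of 10 residues (0.23, adjusted p = 0.47).

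Leaving out 1 mouse left 21 to 27 short CDR3s called between cell types, of 108 to 150 short ones tested instead of 87. Without WT replicate 2 it was 21 of 119, beside 90 higher and 68 lower of all 922. Without WT replicate 1 it was 27 of 150, beside 110 higher and 85 lower of all 1184. The tested sets differ from that of the main fit, so the counts cannot be set against its 33. With 1 mouse left out, the difference of CD4SP from CD8SP was -1.66 to -1.48 points for the short and -1.90 to -1.75 for the long share. Exact tests over 5 mice cannot go below 0.0625, so they lose the threshold by construction. Without 1 pair, the knockout minus WT short share ran from -0.228 to 0.146 in CD4SP and from -0.274 to 0.0347 in CD8SP, with a difference of -0.1202 to 0.420. The long share ran from -0.339 to 0.00569 and from -0.259 to 0.292. The log2 ratio ran from -0.0589 to 0.0657 and from -0.0950 to 0.0423, with a difference of -0.00813 to 0.161.

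Short minus long differences without 1 mouse are given for CD4SP, then CD8SP. Sharing with another mouse ran from 31.5 to 32.1 and from 34.7 to 35.3 points, below the 32.8 and 36.1 with all mice. Leaving out a mouse also removed it as a possible partner, which lowers the shares. The share with an assigned D ran from -65.2 to -64.7 and from -61.7 to -61.1 points, and that without unassigned bases from 12.7 to 13.7 and from 11.54 to 11.96. Unassigned bases ran from -1.17 to -1.13 and from -1.10 to -1.05, V bases removed from 1.32 to 1.36 and from 1.65 to 1.69, and J bases removed from 3.77 to 3.82 and from 3.97 to 3.997. V bases in the CDR3 ran from -2.30 to -2.25 and from -2.30 to -2.24, D bases from -7.38 to -7.34 and from -7.11 to -7.06, and J bases from -5.76 to -5.70 and from -6.13 to -6.10. Hydropathy ran from -0.632 to -0.614 and from -0.356 to -0.317, and reads per clonotype from 0.135 to 0.152 and from 0.238 to 0.264.

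Segment use did not show whether the replicate number pairs WT with knockout libraries. Deviations of same-numbered libraries correlated at r = -0.06, -0.00 and 0.22 in CD4SP and -0.53, -0.24 and 0.51 in CD8SP (33 segments each). WT 2 and knockout 1 reached 0.30 in CD4SP and 0.62 in CD8SP. Paired mice need not deviate together, so these values cannot decide the pairing. Without the replicate block the genotype differences in the short share were again -0.0559 (exact permutation p = 0.8) and -0.152 (p = 0.7), and 0 lengths, segments and CDR3s of short CDR3s were called. At this read depth and a set dispersion of 0.002, simulated 2-fold changes of single CDR3s between genotypes were recovered for 9.7% in CD4SP and 32.3% in CD8SP.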
